A study of Homo sapiens with 4 samples.

Results

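NF-kB is a family of dimeric transcription factors that answers cytokines, microbial products and cell stress, and 32 of its genes are described here: subunits, inducible feedback regulators, cytokines and other inflammatory targets. They were chosen by gene symbol from the 28395 rows of a count table of A375 cells, a human melanoma line with an activating BRAF mutation. The rule holds no measured value, but the choice was made with earlier results of these data known. All 32 were found and all 32 passed the filter on low counts, among 14841 tested genes. The series has 2 groups of wild-type A375 cells grown in serum-containing medium for 6 h, with 0.01% olive oil in the control group and 0.01% ozonated olive oil in the other. No library of cells without oil was used here. Each group has 2 libraries, numbered 1 and 2 in the titles. The labels do not say whether libraries of a group come from separate cultures, or whether libraries of the same number belong together. The p-values therefore measure a spread between libraries that may not be one between independent cultures. In the comparison of the oils, fitted without a term for the number, that spread includes the difference between the numbers.

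In resting cells NF-kB dimers are held in the cytoplasm by IkB proteins. When a receptor such as that for TNF or interleukin 1 is engaged, the IKK complex marks IkB for destruction, the dimers enter the nucleus, and they switch on chemokines, cytokines, adhesion molecules and survival genes together with their own inhibitors, among them IkB-alpha (NFKBIA) and the ubiquitin editor A20 (TNFAIP3). Many melanoma lines release CXCL8, CXCL1 and IL6 in culture without added stimulus. These are bulk libraries, in which fewer cells of a type and less RNA per cell cannot be told apart.

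Total counts ran from 22245807 to 27772480, so a transcript without a read could still have been present at 0.108 to 0.135 CPM (3 counts of the library total, counting error only). CPM is the usual unit in which counts are scaled to the size of their library, here after TMM normalization. The melanoma markers summed to 3240 to 3830 CPM, with SOX10 at 278 to 361 CPM, while the pigment genes PMEL, MLANA, DCT and TYRP1 reached at most 1.35 CPM and TYR had 0 counts in all 4 libraries. Across all tested genes the libraries separated by number more than by oil: the SD of log2 differences was 0.411 and 0.472 between the oils within a number, and 0.665 and 0.689 between the numbers within an oil. Of the marker lists of other cell types, the 8 lymphoid markers summed to 0.139 to 0.34 CPM, the 9 fibroblast markers to 13.5 to 16.1 CPM and the 8 keratinocyte markers to 88.0 to 98.8 CPM, mostly from KRT10. The 10 myeloid markers summed to 73.7 and 89.2 CPM in the libraries numbered 1 (olive and ozonated oil) and to 34.0 and 46.4 CPM in those numbered 2. CD68 made up most of that sum, 5 of the 10 genes had at most 10 counts in each library, PTPRC was detected only in ozonated olive oil 1 (4 counts), and TYROBP had 0 counts throughout. AIF1 also had 0 counts, but it ends the stretch of chromosome 6 described with TNF, where few genes have reads, so its level is not known. The 6 endothelial markers summed to 14.6 and 14.2 CPM in number 1 and to 7.01 and 5.55 CPM in number 2. KDR had the largest share in 3 of the libraries and PECAM1 in ozonated olive oil 2 (2.22 against 2.17 CPM for KDR), and CDH5 had no more than 8 counts.

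Printed below are promoter windows of 5 cytokine and chemokine genes whose oil differences turned sign or nearly vanished between the numbers. That of LCN2, the member with the largest difference between the numbers, is printed last. The windows show kappa B motifs, through which the family is known to act. Those of CXCL8 and LCN2 also show an AP-1 motif, which is not a kappa B site. They are RefSeq windows on GRCh38.p14 (the hg38 build), from 250 bases before to 50 after the annotated start, printed 5′ to 3′ on the strand of the gene. Capitals mark matches, on either strand, to the kappa B consensus, to the AP-1 motif TGANTCA and to the 9-base kappa B site GGAATTTCC. In the order printed, the windows lie at chr4:73869143-73869442 (plus strand), chr4:74099146-74099445 (minus strand), chr4:74038640-74038939 (minus strand), chr4:73740319-73740618 (plus strand), chr7:22726950-22727249 (plus strand) and chr9:128149203-128149502 (plus strand).
CXCL1: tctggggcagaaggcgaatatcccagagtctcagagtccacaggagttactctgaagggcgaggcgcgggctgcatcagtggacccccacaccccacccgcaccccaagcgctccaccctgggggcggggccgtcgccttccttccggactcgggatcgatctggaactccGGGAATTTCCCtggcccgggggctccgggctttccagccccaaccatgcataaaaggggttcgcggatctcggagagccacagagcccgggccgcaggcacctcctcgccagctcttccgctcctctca
CXCL2: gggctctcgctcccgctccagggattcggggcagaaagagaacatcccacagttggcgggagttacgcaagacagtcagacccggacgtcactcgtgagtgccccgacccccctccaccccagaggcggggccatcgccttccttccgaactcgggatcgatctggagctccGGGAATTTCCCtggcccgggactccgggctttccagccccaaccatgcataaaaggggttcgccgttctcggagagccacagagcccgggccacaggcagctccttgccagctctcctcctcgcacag
CXCL3: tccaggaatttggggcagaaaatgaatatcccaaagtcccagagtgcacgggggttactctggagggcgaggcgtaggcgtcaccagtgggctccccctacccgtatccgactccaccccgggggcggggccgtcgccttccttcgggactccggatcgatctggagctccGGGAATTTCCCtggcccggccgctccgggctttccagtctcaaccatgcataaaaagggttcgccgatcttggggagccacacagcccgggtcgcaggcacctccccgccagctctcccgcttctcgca
CXCL8: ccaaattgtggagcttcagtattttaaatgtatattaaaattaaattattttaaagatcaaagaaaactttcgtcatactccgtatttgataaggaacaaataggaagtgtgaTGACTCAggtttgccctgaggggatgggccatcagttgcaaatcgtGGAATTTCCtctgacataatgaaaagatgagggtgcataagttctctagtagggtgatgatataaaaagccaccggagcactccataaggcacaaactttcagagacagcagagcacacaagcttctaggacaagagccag
IL6: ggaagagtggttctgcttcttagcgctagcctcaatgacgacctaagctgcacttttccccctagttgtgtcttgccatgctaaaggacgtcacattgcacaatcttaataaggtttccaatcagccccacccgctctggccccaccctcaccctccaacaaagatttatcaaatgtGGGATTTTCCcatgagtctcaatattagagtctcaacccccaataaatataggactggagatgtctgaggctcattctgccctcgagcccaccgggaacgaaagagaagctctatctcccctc
LCN2: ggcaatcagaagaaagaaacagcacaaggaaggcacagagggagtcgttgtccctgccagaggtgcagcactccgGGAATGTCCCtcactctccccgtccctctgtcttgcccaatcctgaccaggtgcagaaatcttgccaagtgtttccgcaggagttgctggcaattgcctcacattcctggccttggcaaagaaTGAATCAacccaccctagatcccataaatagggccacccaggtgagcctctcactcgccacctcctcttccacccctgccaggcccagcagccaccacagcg

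CXCL1, CXCL2 and CXCL3 carried the same 11 capital letters at nearly the same place, from position -79 to -69 in CXCL1 and CXCL3 and from -78 to -68 in CXCL2. Their windows were 71.9% (CXCL1 and CXCL2), 82.5% (CXCL1 and CXCL3) and 73.8% (CXCL2 and CXCL3) identical in global alignment, and the genes are close copies of each other, so how the counting assigned reads among the 3 is uncertain. CXCL8, a chemokine of the same gene cluster, was 45.2% to 47.9% identical to the other windows. It held no match to the longer consensus, an AP-1 match from -137 to -131 and the 9-base site from -91 to -83. IL6 matched the consensus from -73 to -64. LCN2 had a consensus match on the other strand from -175 to -166 and an AP-1 match from -52 to -46. IL1A and CCL20, whose oil differences also turned sign, have windows that are not printed. Those of IL1A held AP-1 matches but neither the consensus nor the 9-base site, and that of CCL20 matched the consensus from -79 to -70.

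Of the 32 members 27 had a window in the RefSeq table, and 17 of the 27 (63%) held the kappa B consensus, against 13.3% of all 27305 genes of the table. By role these were 5 of 8 cytokines and chemokines, 5 of 6 feedback regulators, 3 of 4 subunits and 4 of 9 other targets. The AP-1 motif was in 3 of 27 (11.1%), against 9.37% of all genes. The 9-base site, added after the windows had been seen and lying inside the consensus match in most of them, was in 9 of 27 (33.3%), against 0.56% of all genes. Since the members are known targets, their share of motifs describes the choice of genes. A match is a string of letters and was not shown to be bound here.

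**Figure D1:**
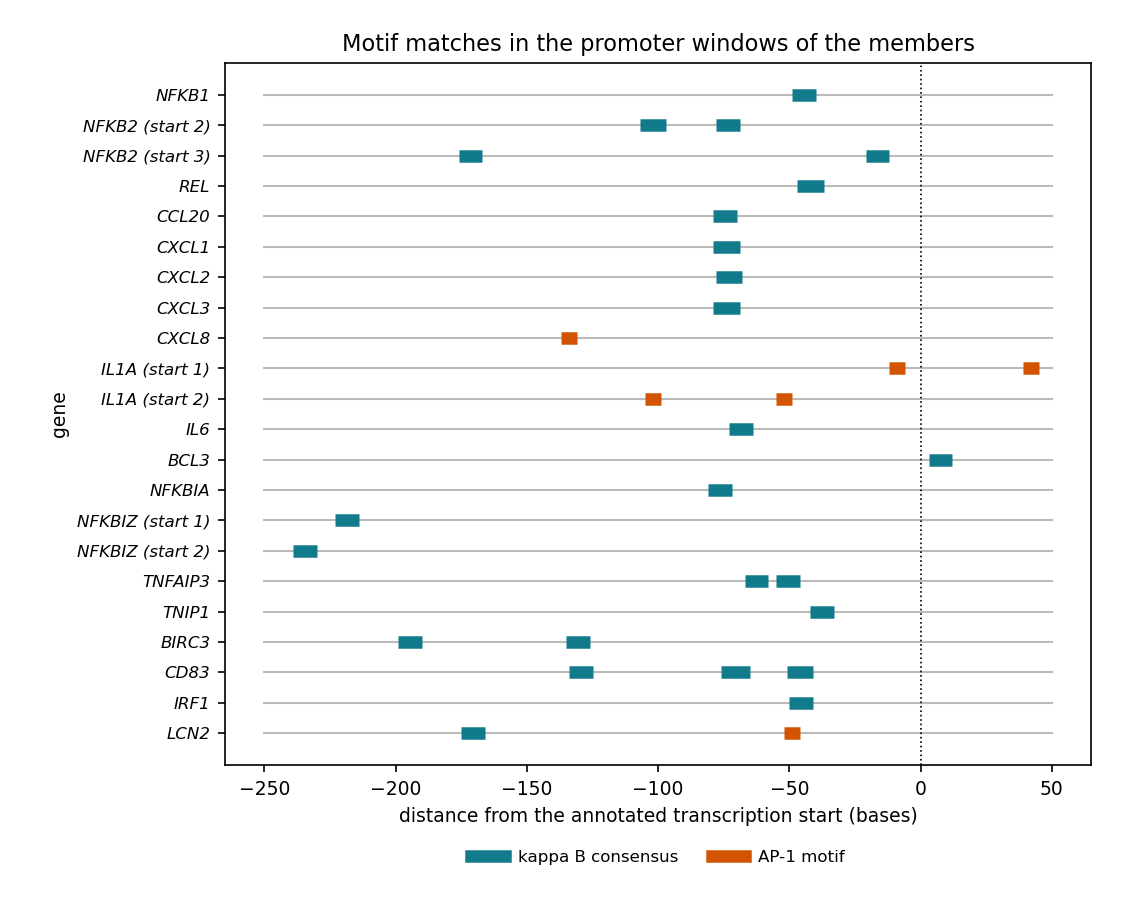
Motif matches in the promoter windows of the members that hold at least 1 match, by distance in bases from the annotated transcription start (dotted line). Each grey line is 1 window, with several for genes with several starts, and blocks are matches to the kappa B consensus or the AP-1 motif on either strand. Between -81 and -64 lie consensus matches of CXCL1, CXCL2, CXCL3, CCL20, IL6, NFKBIA, NFKB2 and CD83. The other consensus matches lie elsewhere or overlap this stretch only in part.

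The study set ozonated oil against plain olive oil. No member differed past the threshold in the fit set for this comparison, which has no term for the number. CXCL8, CXCL1 and LIF, the most abundant of the cytokine transcripts, were at a lower level with ozonated oil in the libraries numbered 1 and at a higher or nearly equal level in those numbered 2. In the quasi-likelihood test of edgeR with p adjusted over all genes (Benjamini-Hochberg), 0 of 32 members and 0 of 14841 genes (0%) differed, and 0 members had an unadjusted p under 0.05, against 3.84% of all genes. DESeq2, limma-voom and the edgeR exact test, likewise without a term for the number, also called 0 members. The smallest unadjusted p among the members was 0.12, for CD83, a surface protein of activated immune cells. The median fitted log2 fold change was -0.17 over the members and 0.00051 over all genes. The members' median became 0.82 when olive oil replicate 1 was left out, -0.68 for olive oil replicate 2, -0.54 for ozonated olive oil replicate 1 and 0.0015 for ozonated olive oil replicate 2. With 1 library removed, 1 oil is represented by a single number, and these values mix both factors. With all 4 libraries and the number as a replicate block, 2 members were called lower with ozonated oil. They were CXCL1 (adjusted p = 0.0292 by edgeR) and IL1B (adjusted p = 0.0422 by edgeR). Over all genes that fit called 468 higher and 373 lower. The labels do not say that a number pairs libraries.

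Among the secreted factors, CXCL8, which draws neutrophils through CXCR1 and CXCR2, lay at 269 CPM with olive oil and 100.4 CPM with ozonated oil in number 1, and at 12.0 and 52.5 CPM in number 2. The difference between the oils was thus -1.42 on the log2 scale in number 1 and 2.12 in number 2, where ozonated oil was 4.34-fold higher. CXCL2, a chemokine for CXCR2, had 8.89 and 3.53 CPM in number 1 and 1.56 and 5.46 CPM in number 2. Its log2 differences were -1.31 and 1.76. CXCL3, the third close copy, had 4.46 and 2.34 CPM in number 1 and 1.19 and 3.33 CPM in number 2. For all 3 chemokines the oils lay in opposite order in the numbers, and the ranges of the oils overlapped.

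IL6, a cytokine that acts through IL6ST and STAT3, lay at 36.9 CPM with olive oil and 15.5 CPM with ozonated oil in number 1, and at 0.742 and 1.80 CPM in number 2. Its log2 differences were -1.24 and 1.20, on counts of 1041 and 365 in number 1 but only 20 and 39 in number 2. IL1A, an interleukin 1 that works as an alarm signal of damaged cells, turned in the same way, with 28.9 and 18.4 CPM in number 1 and 2.08 and 3.75 CPM in number 2. CCL2, which attracts monocytes, had 17.5 and 4.13 CPM in number 1 and 0.668 and 1.06 CPM in number 2, the latter on 18 and 23 counts. For IL6 and IL1A the gap between the numbers within either oil was wider than the gap between the oils within either number. For CCL2 this held with olive oil but not with ozonated oil, where the numbers differed by -1.88 on the log2 scale, beside -2.07 between the oils in number 1.

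CXCL1 and IL1B had another pattern. CXCL1 lay at 197 and 53.3 CPM in number 1, a log2 difference of -1.89, and at 22.4 and 22.9 CPM in number 2, a difference of 0.04. IL1B, the secreted interleukin 1 that inflammasomes process, was lower with ozonated oil in both numbers, at 12.5 and 6.30 CPM in number 1 and 0.705 and 0.370 CPM in number 2, where it rested on 19 and 8 counts. Its log2 differences were -0.98 and -0.80, and it was the only cytokine of the 10 with a negative value in both numbers. LIF, a cytokine related to IL6, ranged more narrowly, from 68.1 CPM in olive oil 2 to 182 CPM in olive oil 1, with log2 differences of -0.67 and 0.38. CCL20, the ligand of CCR6, was at 0.425 to 1.17 CPM in the 4 libraries, with log2 differences of -1.31 and 0.35 on 10 to 33 counts.

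**Figure D2:**
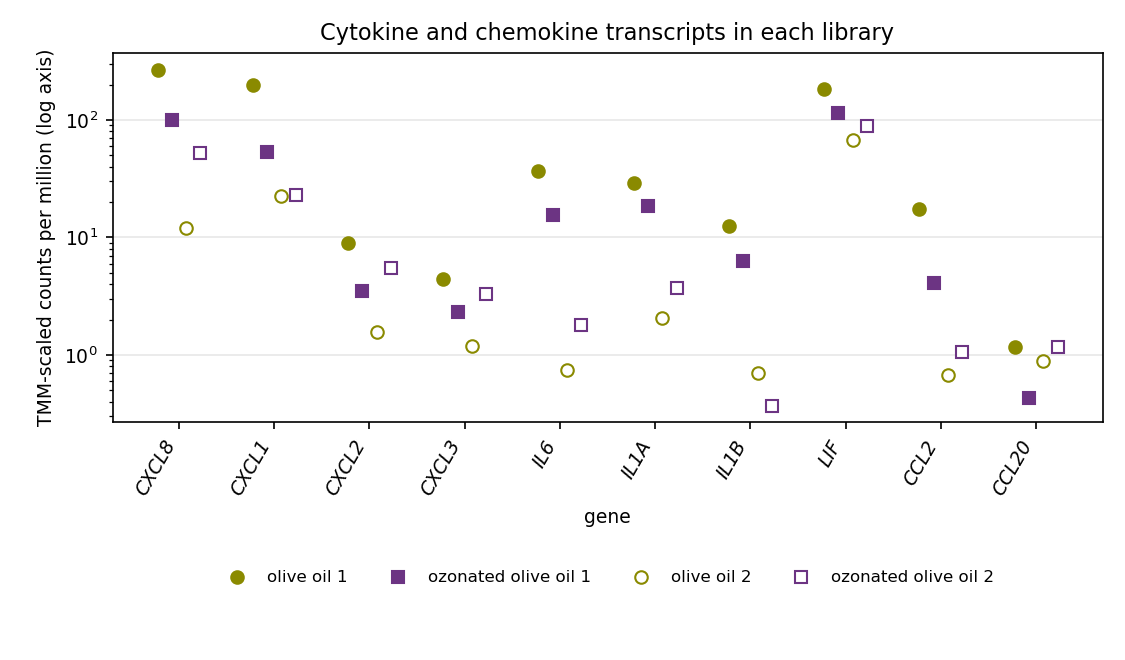
Levels of the 10 cytokine and chemokine transcripts in TMM-scaled CPM on a log axis, 1 symbol for each library (circles, olive oil, and squares, ozonated oil, filled for number 1 and open for number 2). Olive oil 1 is the highest library for all 10 genes, and olive oil 2 is the lowest for 8 of them.

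All 10 cytokines and chemokines lay lower with ozonated oil in number 1, with a median log2 difference of -1.27, and 9 of the 10 lay higher with it in number 2, with a median of 0.72 over the 10. The 9 thus had opposite signs in the numbers (8 with total-count scaling, where CXCL1 turned to -0.023 in number 2). Among all tested genes, 19% were lower in number 1 and higher in number 2. At 2-fold or more each way the genes were CXCL8, CXCL2 and IL6, 3 of 10, against 0.168% of all genes. The value in number 2 exceeded that in number 1 by at least 1 on the log2 scale for 9 of 10, against 3.39% of all genes. These values come from 1 library against 1 and carry no test, because the additive fit has 1 residual degree of freedom and none for an oil by number term.

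For most of the regulators that limit the pathway the oils also lay in opposite order in the numbers, with smaller differences. TNFAIP3, which encodes A20, lay at 47.0 CPM with olive oil and 29.6 CPM with ozonated oil in number 1, and at 14.0 and 27.2 CPM in number 2. NFKBIA lay at 62.0 and 47.9 CPM in number 1 and at 27.1 and 42.5 CPM in number 2. ZC3H12A, the endoribonuclease Regnase-1 that cuts cytokine messages, lay at 26.1 and 18.8 CPM in number 1 and at 6.01 and 18.3 CPM in number 2. In these 3 genes the libraries with ozonated oil were close to each other, and olive oil 1 and olive oil 2 were the highest and the lowest.

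NFKBIZ, an atypical nuclear IkB protein that helps to induce a subset of targets, had log2 differences of -0.58 and 0.51, and NFKBIE, which encodes IkB-epsilon, had -0.10 and 0.67. TNIP1, a partner of A20, had -0.01 in number 1 and 0.46 in number 2. BCL3, a nuclear IkB protein that binds NFKB1 and NFKB2 homodimers, was lower in both numbers, with -0.56 and -0.13, and both ozonated libraries (11.6 and 11.0 CPM) lay below both olive oil libraries (17.2 and 12.1 CPM). Such separation occurred for 15.7% of all genes. Its fitted value was -0.37 ± 0.24 (SE), not past the test.

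Of the subunits, RELA, the main transactivating subunit, was nearly level, at 99.0 and 105 CPM in number 1 and 89.8 and 96.6 CPM in number 2. NFKB1, the gene of p105 and p50, had log2 differences of -0.14 and 0.03 (-0.034 in number 2 with total-count scaling and -0.00039 with upper-quartile scaling). NFKB2 and RELB, whose products form the main dimer of the non-canonical pathway, had values near 0 in number 1, at -0.0032 and 0.02, and 0.52 and 0.47 in number 2. The sign of NFKB2 in number 1 turned with RLE scaling (0.00034) and that of RELB with total-count scaling (-0.012). REL, the gene of c-Rel, lay at 19.6 and 16.2 CPM in number 1 and at 11.1 and 24.7 CPM in number 2. Its log2 differences were -0.27 and 1.15, the latter the largest in size of any of the 5 subunits.

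Among the other targets, LCN2, the siderophore-binding lipocalin, had 169 and 165 CPM in number 1, a log2 difference of -0.04, and it had 4 and 13 counts in number 2. C3, the central complement component, had 425 and 435 CPM in number 1 and 7.20 and 10.3 CPM in number 2. PTGS2, the inducible cyclooxygenase, was higher with ozonated oil in both numbers, by 0.30 and 0.82. IRF1, an interferon-regulated transcription factor, and TRAF1, a receptor adaptor, were lower in both, by log2 values of -0.40 and -0.40 for IRF1 and -0.37 and -0.46 for TRAF1. None of these differences passed the test.

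BIRC3, an inhibitor of apoptosis and ubiquitin ligase, had 76.9 and 42.0 CPM in number 1 and 6.27 and 9.21 CPM in number 2. ICAM1, an adhesion molecule for leukocytes, had -0.11 in number 1 and 0.54 in number 2 on the log2 scale. SOD2, the mitochondrial superoxide dismutase, and TNFAIP2 were lower in both numbers, with -0.41 and -0.13 for SOD2 and -0.41 and -0.11 for TNFAIP2. CD83 lay at 14.1 and 8.17 CPM in number 1 and 14.0 and 12.0 CPM in number 2. With BCL3 it was 1 of 2 members whose oil groups did not overlap. Both ozonated libraries lay below for these 2 of 32 members and above for 0, against 15.7% and 15.3% of all genes.

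Over the whole set, 21 of 32 members were lower with ozonated oil in number 1 and higher in number 2 (20 with RLE, upper-quartile or total-count scaling), against 19% of all tested genes. Another 7 were lower in both, against 31.1%, and 4 were higher in both, against 31.6%. The oil difference was more positive in number 2 for 31 of 32 members (29 with upper-quartile or total-count scaling), against 50.6% of all genes. The exception was TRAF1. The median of number 2 minus number 1 was 0.89 over all members, and it was 2.13 for cytokines and chemokines, 1.02 for feedback regulators, 0.45 for subunits and 0.50 for other targets, beside 0.0039 over all genes, where the 5th and 95th percentiles were -0.76 and 0.80. Olive oil 1 was the highest library for 27 of 32 members and olive oil 2 the lowest for 24, against 23.4% and 25.2% of all genes. Both held for 19 members, against 7.14% of all genes. With 1 library in each combination, a difference in oil response and a single library that stands apart cannot be told apart.

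**Figure D3:**
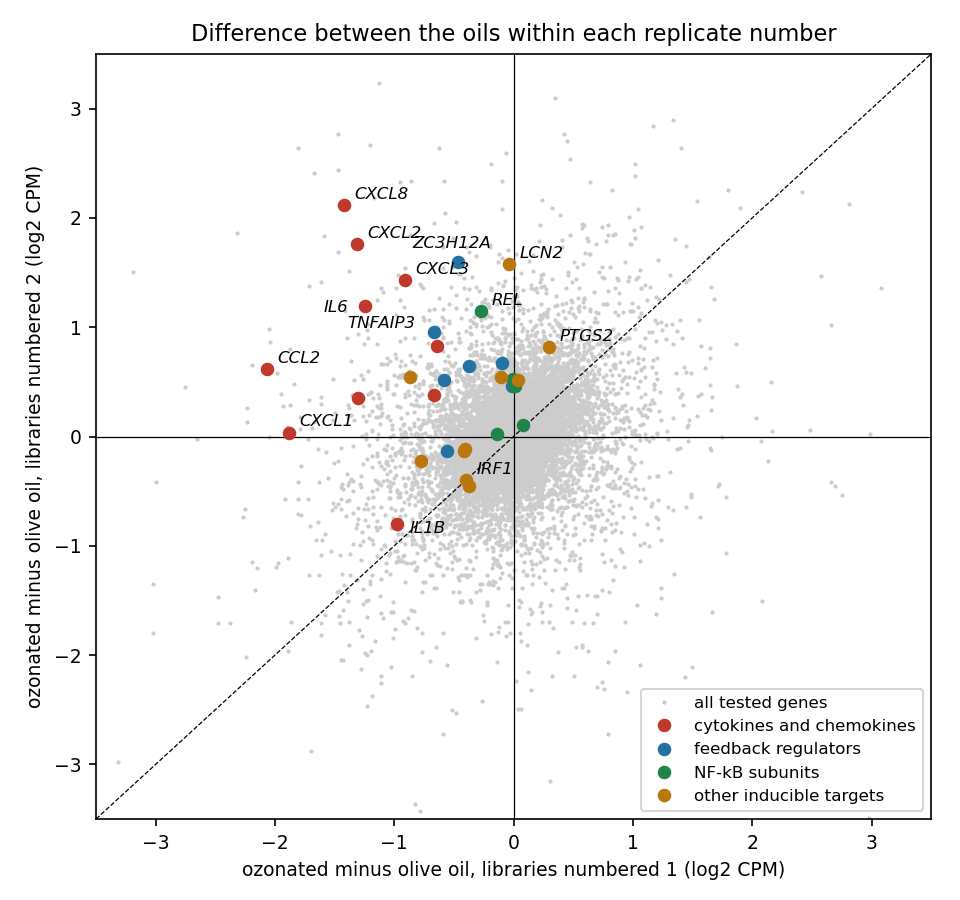
Difference between ozonated and olive oil in log2 CPM within the libraries numbered 1 (x axis) and within those numbered 2 (y axis), with 1 point for each gene, members coloured by role and all tested genes in grey. Points above the dashed line have a more positive difference in number 2, as 31 of 32 members do, and 15 tested genes lie outside the axes, which end at 3.5.

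The comparison of the numbers asked how far the same genes differ between the libraries numbered 2 and those numbered 1, with the oil as a term of the fit. Of the 32 members 24 were lower in number 2 and 0 were higher in the same edgeR test, against 13.3% of all tested genes lower and 11.1% higher. The median log2 fold change was -0.90 over the members and 0.0049 over all genes. Both libraries numbered 2 lay below both numbered 1 for 25 members, against 27.5% of all genes. With the oil term dropped, 13 members were called, and with the oil term dropped and 1 library left out the count was 9 on removal of olive oil replicate 1, 12 for olive oil replicate 2, 12 for ozonated olive oil replicate 1 and 17 for ozonated olive oil replicate 2. The 8 members called under all 12 alternatives were BIRC3, C3, ICAM1, IL1A, IL1B, IL6, LCN2 and TNIP1. With all 4 libraries and no oil term, the calls of CXCL8, LIF, TNFAIP3, NFKBIA, NFKBIE, ZC3H12A, NFKB1, NFKB2, RELB, TRAF1 and IRF1 were lost, and DESeq2 with the oil term did not call CXCL8, CXCL1, LIF, TNFAIP3, NFKBIA, NFKBIE, ZC3H12A and TRAF1. What the number stands for is not given in the labels. The summed myeloid and endothelial markers given above were also lower in number 2, with CD68 (-1.10), CSF1R (-2.73) and KDR (-1.92) past the test, while CD14 (0.39), LYZ (-0.03) and PECAM1 (-0.11) did not pass. Of the other lists, FAP (-2.99) was lower among 6 tested fibroblast markers and KRT14 (-0.64) among 2 keratinocyte markers. Of 11 tested melanoma markers MCAM (-0.44) was lower, and S100B (1.31), S100A1 (1.22), CSPG4 (0.25) and SOX10 (0.21) were higher. The part of these markers in the differences of the members was not tested.

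The largest falls were in transcripts of secreted proteins. LCN2 (ENSG00000148346) had a log2 fold change of -8.87 ± 0.20 (SE, adjusted p = 2.71e-14 by edgeR), and in counts it went from 4776 to 4 with olive oil and from 3870 to 13 with ozonated oil. C3 fell by 5.64 ± 0.11 (SE, adjusted p = 8.13e-15 by edgeR), which is 49.7-fold, with 11989 against 194 counts in olive oil and 10215 against 223 in ozonated oil. IL6 fell by 4.33 ± 0.34 and IL1B fell by 4.11 ± 0.29, or 20.2-fold and 17.3-fold. In all 4 genes each oil showed the fall, and every library numbered 2 lay far below every library numbered 1.

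CCL2 (-3.48 ± 0.42 SE), IL1A (-3.03 ± 0.25), CXCL8 (-2.60 ± 0.49) and CXCL1 (-2.22 ± 0.27) each fell past the test. For these 4 the fall was steeper with olive oil than with ozonated oil: CXCL8 had -4.47 with olive oil and -0.94 with ozonated oil, CCL2 -4.56 and -1.88, CXCL1 -3.14 and -1.22, and IL1A -3.75 and -2.27. LIF fell by 0.90 ± 0.16. Dropping the oil term alone ended the calls of CXCL8 and LIF. With 1 library also left out, the call of CCL2 was lost for olive oil replicate 1, olive oil replicate 2 and ozonated olive oil replicate 2, and that of CXCL1 for olive oil replicate 2 and ozonated olive oil replicate 2. In those fits the values moved by over 1.5 times for CCL2 (to -2.26), CXCL1 (to -1.23), CXCL8 (to -1.65) and LIF (to -0.55) without olive oil replicate 1, and for CXCL8 (to -3.94) without ozonated olive oil replicate 2. CXCL2, CXCL3 and CCL20 did not pass, with -0.89 ± 0.47, -0.67 ± 0.43 and 0.39 ± 0.52, although CXCL2 passed with total-count scaling (adjusted p = 0.00632 by edgeR) and without a filter on low counts (adjusted p = 0.00257 by edgeR), and all 3 were lower in number 2 with olive oil but higher in number 2 with ozonated oil. In olive oil all 32 members were lower in number 2, against 49.8% of all genes, and in ozonated oil 26 were, against 49.7%. The median within-oil difference was -1.55 with olive oil and -0.55 with ozonated oil, a restatement of the opposite oil differences above from the same 4 libraries.

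Feedback regulators and subunits were lower in number 2 by smaller amounts. Of 7 feedback regulators 5 fell: TNIP1 (-1.44 ± 0.10 SE), ZC3H12A (-1.03 ± 0.30), TNFAIP3 (-0.93 ± 0.24), NFKBIA (-0.68 ± 0.16) and NFKBIE (-0.53 ± 0.17). NFKBIZ had -0.45 ± 0.18 and BCL3 -0.30 ± 0.16, neither past the test. NFKBIZ passed in edgeR with upper-quartile scaling (adjusted p = 0.0492), with total-count scaling (adjusted p = 0.000814) and without a filter on low counts (adjusted p = 0.00184). Of 5 subunits 3 fell, NFKB2 (-0.69 ± 0.10), RELB (-0.59 ± 0.12) and NFKB1 (-0.43 ± 0.09), while RELA had -0.13 ± 0.08 and REL -0.10 ± 0.23. The 3 subunit genes that fell are themselves known targets of NF-kB. REL, which did not pass, also held the kappa B consensus in its promoter window, and the cause of the falls was not tested. By list the median log2 fold change was -2.41 for cytokines and chemokines, -0.68 for feedback regulators, -0.43 for subunits and -1.30 for other targets. Dropping the oil term alone ended all of these calls except that of TNIP1. With 1 library also left out, the values ran from -1.90 to -0.29 for ZC3H12A, -1.45 to -0.49 for TNFAIP3, -1.02 to -0.37 for NFKBIA and -0.86 to -0.19 for NFKBIE, and from -0.95 to -0.43 for NFKB2 and -0.82 to -0.35 for RELB. In each of these 6 genes the steepest value came without ozonated olive oil replicate 2 and the shallowest without olive oil replicate 2. ZC3H12A had -0.64 and TNFAIP3 had -0.52 on removal of olive oil replicate 1.

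Of the 10 other targets 9 fell. Beside LCN2 and C3 these were BIRC3 (-2.91 ± 0.22 SE), PTGS2 (-1.84 ± 0.19), ICAM1 (-1.69 ± 0.12), TNFAIP2 (-0.92 ± 0.10), IRF1 (-0.89 ± 0.12), SOD2 (-0.82 ± 0.11) and TRAF1 (-0.75 ± 0.21). CD83 had 0.26 ± 0.17, the single positive value of the 10, and did not pass. Dropping the oil term alone ended the calls of TRAF1 and IRF1. With 1 library also left out, the call of SOD2 was lost for olive oil replicate 1 and for either ozonated olive oil replicate, that of PTGS2 for olive oil replicate 1 and ozonated olive oil replicate 1, and that of TNFAIP2 for olive oil replicate 1. ICAM1 lay at 119 and 110.2 CPM in number 1 and at 29.5 and 42.9 CPM in number 2 (olive and ozonated oil). SOD2 lay at 60.6 and 45.5 CPM in number 1 and at 31.3 and 28.6 CPM in number 2.

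**Figure D4:**
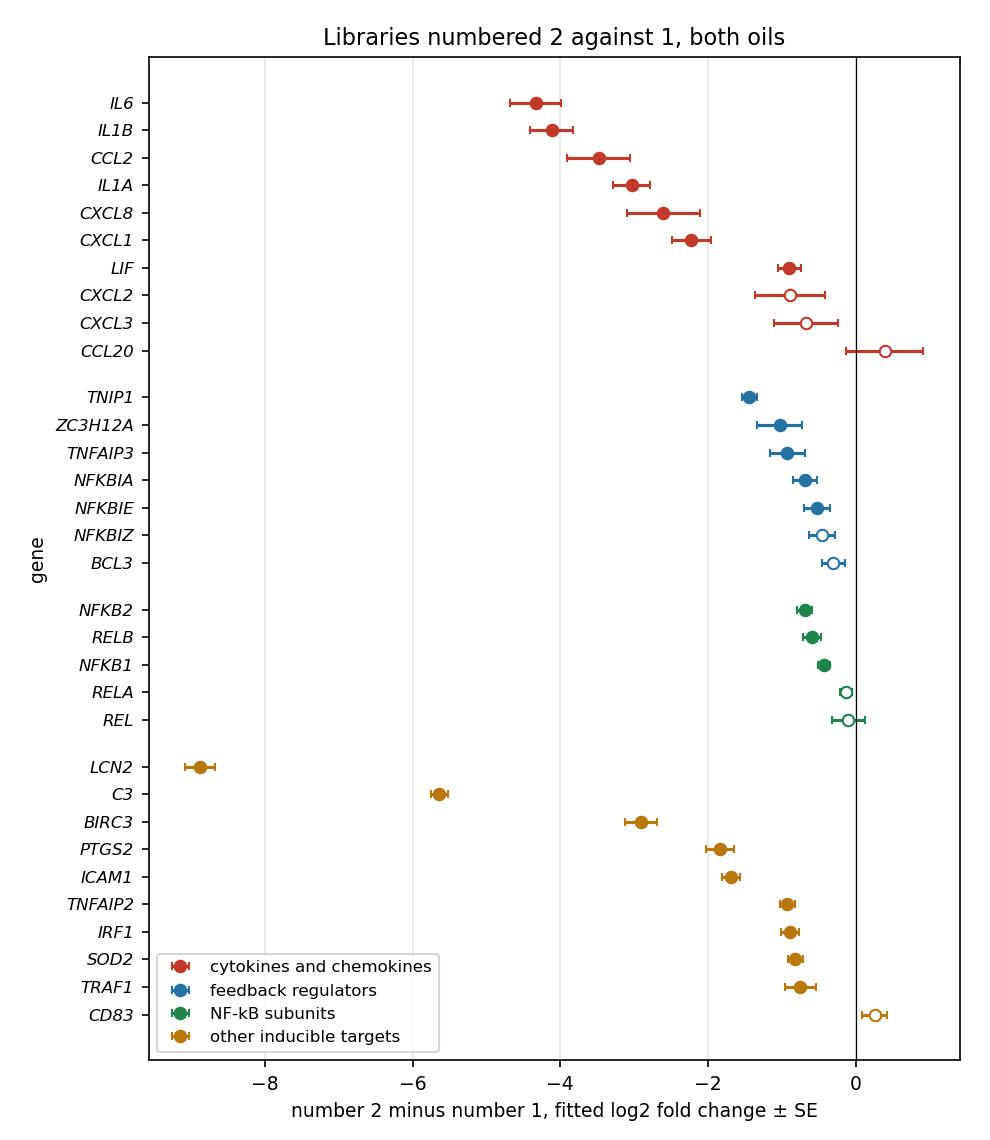
Fitted log2 fold change of the libraries numbered 2 against those numbered 1, with the oil as a term, for the 32 members by role, with bars for 1 SE either side (2 libraries for each number). Filled symbols passed an adjusted p of 0.05 by edgeR over all tested genes. The 24 filled symbols all lie to the left of 0, from LCN2 at -8.87 to NFKB1 at -0.43.

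**Figure D5:**
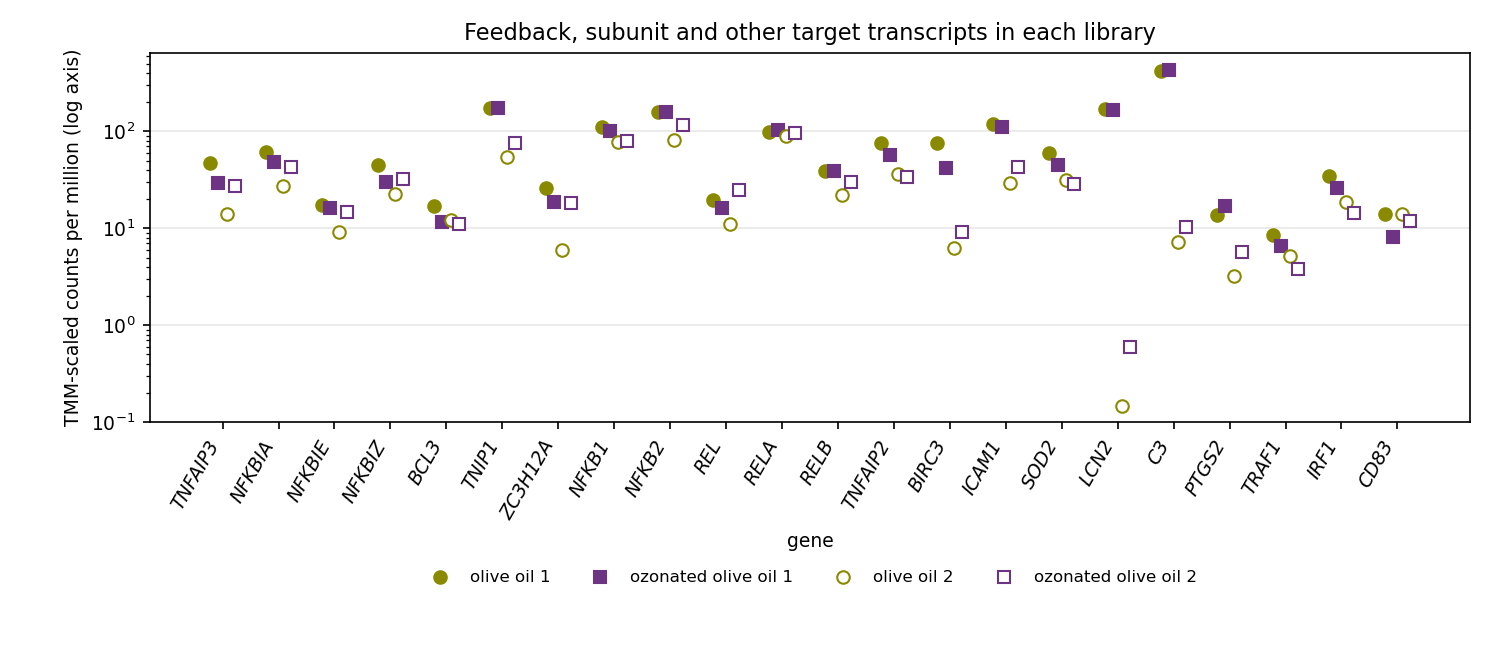
Levels of the 22 feedback, subunit and other target transcripts in TMM-scaled CPM on a log axis, 1 symbol for each library. LCN2 and C3 stand apart by number in both oils, while RELA stays between 89.8 and 105 CPM in all 4 libraries.

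The rest of the pathway was read from 5 lists of textbook members. Of 22 receptors 16 were tested, and 3 were lower and 4 higher in number 2, against 13.3% of all genes lower and 11.1% higher. LIFR, the receptor for LIF, had 1.26 ± 0.15 (SE) and TNFRSF1B, the second TNF receptor, 1.15 ± 0.22, both higher in number 2. Their sign was opposite to that of the 7 of 10 cytokine genes called lower, while CCL20 had 0.39 and did not pass. IL17RA fell by 0.66 ± 0.12. Dropping the oil term alone ended the call of TNFRSF1B. With 1 library also left out, those of LIFR and IL17RA were lost for olive oil replicate 1 and ozonated olive oil replicate 1, and that of IL17RA also for ozonated olive oil replicate 2. IL6ST, the signal transducer shared by IL6 and LIF receptors, was the most abundant at 194 to 269 CPM. The chemokine receptor genes CXCR1 and CCR2 had 0 counts in all libraries and CXCR2 and CCR6 at most 2. For the oils no receptor passed, and the smallest unadjusted p values belonged to TNFRSF1A (0.27 ± 0.11), TLR6 (0.64 ± 0.27) and TLR4 (-0.29 ± 0.16).

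The 22 adaptors and kinases between receptor and IKK were nearly level, with a median log2 fold change of -0.15 in number 2, and 4 were lower and 1 was higher, against 13.3% and 11.1% of all genes. BIRC2, a ubiquitin ligase related to BIRC3, fell by 0.55 ± 0.08 (SE) and IRAK2, a kinase of interleukin 1 receptors that is itself inducible, fell by 0.94 ± 0.19, while IRAK1, the most abundant at 515 to 657 CPM, rose by 0.28 ± 0.06. Dropping the oil term alone ended these 3 calls. On removal of 1 library as well, IRAK2 ran from -1.44 without ozonated olive oil replicate 2, where it was called, to -0.46 without olive oil replicate 2. With ozonated oil MAP3K14, the NIK kinase of the non-canonical pathway, lay at 21.3 and 18.5 CPM against 38.5 and 31.4 CPM with olive oil, a fitted value of -0.81 ± 0.18 (SE, unadjusted p = 0.0066 by edgeR, adjusted p = 1). Its groups did not overlap, and the log2 differences were -0.85 and -0.76 in the numbers. Of the 22 genes, 1 had both ozonated libraries above and 4 had both below, against 15.3% and 15.7% of all genes. With the number as a replicate block MAP3K14 had -0.81 ± 0.12 (SE, adjusted p = 0.000422 by edgeR). RIPK1 had -0.33 ± 0.15 and TAB3 -0.20 ± 0.14. Of the 11 other inhibitors 10 were tested, and 2 fell in number 2, against 13.3% of all genes, NLRC5 (-0.58 ± 0.14) and the deubiquitinase CYLD (-0.35 ± 0.10). Both calls were lost with DESeq2 and with the oil term dropped. NFKBID, a nuclear IkB protein, had 0.51 ± 0.22, not past the test, and passed without a filter on low counts (adjusted p = 0.0393 by edgeR) and without the oil term and olive oil replicate 2 (0.95, adjusted p = 0.0465 by edgeR). For the oils NFKBID had 0.50 ± 0.37, PDLIM2 -0.24 ± 0.16 and NLRC5 -0.28 ± 0.31, and OTULIN, the most abundant, lay at 43.4 to 49.8 CPM.

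Of 32 further targets 15 were tested, and 14 of the 15 fell in number 2 by the same test, against 13.3% of all genes. The filter could be passed on the libraries numbered 1 alone. TNFRSF9 did so, with 45 and 28 counts there and 0 and 4 in number 2 (olive and ozonated oil). The share of 14 of 15 is thus set in part by which genes of the list passed. MMP9, a gelatinase, fell by 6.63 ± 0.22 (SE), from 1242 and 1011 counts to 8 and 13, SERPINB2, an inhibitor of plasminogen activators, fell by 5.18 ± 0.23, and the cytokine IL32 fell by 4.09 ± 0.37. Between the oils, IL11, a cytokine of the IL6 family, lay at 120.4 and 94.2 CPM with ozonated oil against 51.9 and 30.6 CPM with olive oil, a value of 1.38 ± 0.29 (SE, unadjusted p = 0.00515 by edgeR, adjusted p = 1). DESeq2 and the edgeR exact test called IL11, with adjusted p of 0.00198 and 0.0184, and over its other alternatives without a term for the number the adjusted p was 0.471 to 1. With the number as a replicate block IL11 had 1.41 ± 0.10 (SE, adjusted p = 3.84e-07 by edgeR). NUAK2, a kinase related to AMPK, had -1.22 ± 0.40 and GADD45B -0.40 ± 0.18. IL11, NUAK2 and GADD45B were named for the smallest p between the oils, and their oils did not overlap. Of the 15 tested genes, 1 had both ozonated libraries above and 2 had both below, against 15.3% and 15.7% of all genes. CSF2, chosen after its values were seen, had opposite oil differences in the numbers as CXCL8 did. It lay at 33.7 and 15.7 CPM in number 1 and 1.48 and 3.84 CPM in number 2. Of the 15 tested targets, 5 were lower with ozonated oil in number 1 and higher in number 2, against 19% of all genes. At 2-fold or more each way 1 of the 15 did so, against 0.168% of all genes. TNF, LTA and LTB had 0 counts, but they stand in a stretch of chromosome 6 (30743199 to 31617015, GRCh38) where 27 of 29 protein-coding genes had at most 10 counts in each library, so their level is not known from this table.

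Of 10 factors that control decay of cytokine messages, 0 were lower and 4 were higher in number 2, against 13.3% and 11.1% of all genes. ZFP36, the gene of tristetraprolin, which binds AU-rich cytokine messages and speeds their decay, had 13.0 and 29.3 CPM in number 1 (olive and ozonated oil) and 19.7 and 141 CPM in number 2. Its log2 differences between the oils were 1.17 and 2.84, with a fitted value of 2.38 ± 0.76 (SE, unadjusted p = 0.0266 by edgeR, adjusted p = 1). With the number as a replicate block it had 2.07 ± 0.24 (SE, adjusted p = 4.16e-05 by edgeR). Between the numbers it had 1.52 ± 0.24, past the test, but the call was lost with DESeq2 and with the oil term dropped. With 1 library also left out, the value ran from -0.096 without ozonated olive oil replicate 2 to 2.75 without olive oil replicate 2, and it was 2.62 without ozonated olive oil replicate 1. ZFP36L2, a relative of tristetraprolin, had -0.54 ± 0.18 between the oils and 0.34 ± 0.08 in number 2, RC3H2 had 0.24 ± 0.14 between the oils, and HNRNPD, the most abundant at 424 to 544 CPM, had 0.28 ± 0.06 in number 2. The calls of ZFP36L2 and HNRNPD were lost with the oil term dropped. In the fits that also left out 1 library, ZFP36L2 had 0.64 and 0.05 on removal of olive oil replicates 1 and 2, and 0.09 and 0.58 on removal of ozonated olive oil replicates 1 and 2.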

How the data were processed

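RNA of A375 cells was sequenced from 4 libraries, 2 with olive oil and 2 with ozonated olive oil, made with a directional kit per the labels' protocols. The table deposited by the authors holds whole-number counts of reads per gene, not normalized, with gene symbols and identifiers. The submitters' processing notes name the build hg38 and, without their roles, HISAT2 2.1.0, SAMtools 1.9, bcl2fastq, StringTie 1.3.4d, FastQC 0.11.7, edgeR and bedtools 2.27.1. Which program counted the reads, with which strand setting and gene models, was not given in the sources used here. Reads of overlapping or near-identical genes are therefore of uncertain assignment. No per-sample column was left unmapped.

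From the counts, genes were kept by edgeR's filterByExpr over the oils (14841 of 28395), and library sizes were scaled by TMM (factors 0.9723 to 1.017). The 617 rows without a symbol, 0.0423% to 0.0494% of the counts, were kept. CPM values are TMM-scaled. Differences within a number or within an oil are in log2 CPM with a prior count of 2 and compare 1 library with 1, without a test. The oil comparison (ozonated minus olive oil, 2 residual degrees of freedom) and the number comparison (number 2 minus number 1, with the oil as a term, 1 residual degree of freedom) used edgeR's two-sided quasi-likelihood test with Benjamini-Hochberg adjustment over all tested genes and a threshold of 0.05. R 4.3.3, edgeR 4.0.16, limma 3.58.1 and DESeq2 1.42.0 were used. SEs of edgeR values were derived from the fitted log2 fold change and its F statistic. With 2 libraries against 2, the smallest two-sided p of an exact permutation test is 0.333, so none is given. Other scalings, filters and tests, a fit with the number as a block, fits without the oil term and fits without each library were tried, and the fitting was tested on simulated data.

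The 32 members and all gene lists were chosen with earlier results of these data known. All members are named, and of each pathway list the 3 genes with the smallest p in either comparison and the 1 with the highest mean CPM. Both strands of the promoter windows, from a RefSeq table on GRCh38.p14, were searched for motifs, and overlapping matches of 1 motif were merged. Counts per library differed by more than sampling noise in every pair, with a chi-square per degree of freedom of 22.77 to 66.25.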

Additional observations from a re-analysis of the deposited data

Results flagged for a closer look

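For 3 cytokine genes the difference between the oils had opposite signs in the numbers, with at least a 2-fold difference each way. Such a turn, lower in number 1 and higher in number 2, held for 0.168% of all tested genes. The oil difference in number 2 minus that in number 1 was 3.54 on the log2 scale for CXCL8, 3.07 for CXCL2 and 2.44 for IL6. The difference between the numbers was not tested, because each combination of oil and number has 1 library. Opposite signs of any size were found for 21 of the 32 members. All 21 were lower in number 1 and higher in number 2, against 19% of all tested genes. The other order held for 0 members and for 2710 of 14841 genes.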

How the results depend on the processing

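Between the oils, 0 members were called under each scaling, each filter, DESeq2, limma-voom, the edgeR exact test and each fit that left out 1 library. Over all genes DESeq2 called 38 higher and 20 lower and the exact test 22 and 13, while the fits without 1 library called 0 to 4 higher and 0 to 1 lower. The titles number the libraries but do not say what a number marks, so the samples share only a number. Number 2 minus number 1 in olive oil correlated with the same in ozonated oil across 14841 genes (Pearson 0.672, Spearman 0.605), and genes are not independent replicates. With the number as a replicate block, 468 genes were called higher and 373 lower with ozonated oil, and 2 members were called lower, both of them cytokines (CXCL1, adjusted p = 0.0292, and IL1B, adjusted p = 0.0422, by edgeR). Of the named pathway genes, TLR6, MAP3K14, IL11, NUAK2, ZFP36 and ZFP36L2 also passed under the replicate block, each with the sign reported. SERPINB2 (-0.895, adjusted p = 0.0138 by edgeR) and BIRC2 (-0.28, adjusted p = 0.046 by edgeR) passed there too, both lower with ozonated oil.

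Fitted oil values without a call turned sign in several fits, and the cause was not tested. Under limma-voom they were 0.34 for CXCL8, 0.21 for CXCL2, 0.0078 for IL6, 0.10 for IL1A, 0.14 for TNFAIP3 and 0.97 for LCN2. Under the replicate block they were 0.14 for CXCL8, 0.074 for CXCL2, 0.097 for TNFAIP3 and 0.036 for LCN2. CXCL3 had -0.0064 with upper-quartile scaling, -0.045 with total-count scaling and -0.00051 with a filter at 1 CPM in 2 libraries, and NFKBIA had -0.023 with total-count scaling. With 1 library left out, the oil values of cytokines ran over these ranges on the log2 scale: CCL2 -3.09 to 1.95, CCL20 -1.27 to 0.17, CXCL1 -2.37 to 0.77, CXCL2 -0.98 to 1.52, CXCL3 -0.65 to 1.25, CXCL8 -1.81 to 2.67, IL1A -2.04 to 2.41, IL1B -4.14 to 2.23, IL6 -3.38 to 3.54 and LIF -0.84 to 0.58. For regulators and subunits they were NFKB1 -0.30 to 0.21, NFKB2 -0.20 to 0.75, NFKBIA -0.45 to 0.74, NFKBID -0.048 to 0.90 and NFKBIE -0.16 to 0.74. They were also NFKBIZ -0.53 to 0.46, NLRC5 -0.57 to 0.072, RELB -0.15 to 0.66, TNFAIP3 -0.72 to 1.02, TNIP1 -0.61 to 1.18 and ZC3H12A -0.49 to 1.63. For other targets they were BIRC3 -2.17 to 2.03, C3 -4.39 to 4.95, ICAM1 -0.79 to 1.38, IRF1 -0.91 to 0.11, LCN2 -7.13 to 9.07, PTGS2 -0.58 to 1.83, SOD2 -0.71 to 0.24 and TNFAIP2 -0.75 to 0.32.

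Between the numbers, 24 members were called lower in the reported fit. Over all genes DESeq2 called 684 higher and 967 lower, the fit without the oil term 332 and 616, and the fits that also left out 1 library 50 to 383 and 134 to 476. Members called lower were 13 without the oil term and 9 to 17 with 1 library also left out. Cytokines called lower were 4 with DESeq2 and 3 to 6 with 1 library left out. In those last fits the log2 fold change of CCL20 ran from -0.20 to 1.25, of CD83 from -0.11 to 0.68, of REL from -0.69 to 0.46 and of ZFP36 from -0.096 to 2.75. Fits with fewer samples have less to estimate the spread from, and dropping the oil term adds the oil difference to it.

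Within a number, signs turned only for values near 0 under the 5 alternatives of scaling and prior count. NFKB2 in number 1 had 0.00034 with RLE scaling and RELB in number 1 -0.012 with total-count scaling. In number 2 CXCL1 had -0.023 with total-count scaling, and NFKB1 had -0.00039 with upper-quartile and -0.034 with total-count scaling. Where 1 library per group remains, it is assumed to vary like the others. Depth limits the lowest members most: IL1B, CCL2, IL6 and LCN2 rest on 4 to 39 counts in the libraries numbered 2, and CCL20 on 10 to 33 in all 4.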
